A study of Mus musculus with 10 samples.

Results

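Inflammasomes are cytosolic protein complexes of myeloid cells. A sensor protein such as NLRP3, AIM2, NLRC4 or pyrin recruits the adaptor ASC, which brings Casp1 into the complex, and Casp1 then matures the cytokines encoded by Il1b and Il18 and cuts gasdermin D. Cut gasdermin D forms pores in the plasma membrane, through which the cytokines leave and by which the cell can die, a death called pyroptosis. Neutrophils carry much of this machinery and are among the first cells to enter an infarcted heart.

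The genes described here were 9 genes of this machinery out of 28185 genes in the table, chosen by name: the sensors Nlrp3, Nlrc4, Aim2 and Mefv, the NLRP3 partner Nek7, the adaptor Pycard, the inflammatory caspases Casp1 and Casp4, and the pore protein Gsdmd. Their transcripts were measured in Ly6G+ cells, a bead selection for neutrophils, taken on day 3 of an infarct made by tying off the left coronary artery in C57Bl/6J males aged 12 to 16 weeks. The 4 groups were MI (3 libraries) and Blood (2 libraries), from infarcted ventricle and blood of mice without cell treatment, and MI + MSC (3 libraries) and Blood + MSC (2 libraries), from mice given syngeneic bone marrow mesenchymal stromal cells (MSC) under the skin at 3 sites of 1000000 cells each. All mice had the infarct, and the series as analysed here has no library from an uninjured heart. No label ties a heart library to a blood library of one mouse, and the batch entry repeats the group, so that group and any batch cannot be told apart.

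Values are normalized counts, that is reads scaled by each library's DESeq2 size factor, and the reads behind them were recovered. The libraries held 148594 to 8602711 reads on genes, and a single read made 8.40 normalized counts in MI 13, 7.07 in Blood 21 and 0.168 to 2.30 elsewhere. The Ly6G+ label was checked with 14 neutrophil markers, which summed to 2958 to 9257 normalized counts in MI, 4267 to 17097 in MI + MSC, 46158 to 54082 in Blood and 17535 to 25036 in Blood + MSC. Ly6g itself had 2 to 35 reads in each cardiac library, and 4.75 to 26.9 normalized counts there against 41.2 to 645 in blood. Markers of cardiomyocytes summed to 3259 to 24599 in the cardiac and to 15.6 to 63.6 in the blood libraries. The 14 monocyte and macrophage markers summed to 3488 to 9052 in MI and 6181 to 12666 in MI + MSC. In Blood they summed to 7205 to 8358 and in Blood + MSC to 5933 to 7613. They exceeded the neutrophil markers in MI 13, MI 20 and MI + MSC 18, and lay below them in the other libraries. In such bulk samples, fewer cells of a type and less RNA per cell cannot be told apart.

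Nlrp3 (ENSMUSG00000032691), the sensor that responds to potassium efflux and to tissue damage, lies on chromosome 11 from 59432394 to 59457782 on the plus strand of GRCm39. The study also measured it by RT-qPCR, and its primer pair is printed because it fixes which part of the transcript that assay reads. For cardiac cells, the paper reports an upward trend of Nlrp3 with MSC in that assay, apart from the genes it gives as significantly increased. Its own RNA-seq analysis placed Nlrp3 among the upregulated genes. Both primers, of 21 bases, matched once in the canonical transcript of 10 exons, inside coding sequence. The forward primer lies in exon 6 at chr11:59446719-59446739 and the reverse primer, read from the minus strand, in exon 7 at chr11:59449238-59449258, so the 76 bases between their outer ends cross an exon junction.
Nlrp3 forward primer: ctgctctgcaacctccagaaa
Nlrp3 reverse primer: ccaatgcgagatcctgacaac

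Casp1 (chromosome 9, 5298508 to 5307290, plus strand) and Casp4 (chromosome 9, 5308828 to 5336783, plus strand) are neighbouring genes. Casp4 encodes the mouse caspase that senses cytosolic lipopolysaccharide and cuts gasdermin D without the adaptor. Both were lower in MI than in Blood, as given further on, and the 250 bases before the start of their canonical transcripts are therefore printed, from the plus strand of GRCm39, for Casp1 at chr9:5298258-5298507 and for Casp4 at chr9:5308593-5308842. Capitals mark matches to the NF-kB consensus on either strand.
Casp1 promoter: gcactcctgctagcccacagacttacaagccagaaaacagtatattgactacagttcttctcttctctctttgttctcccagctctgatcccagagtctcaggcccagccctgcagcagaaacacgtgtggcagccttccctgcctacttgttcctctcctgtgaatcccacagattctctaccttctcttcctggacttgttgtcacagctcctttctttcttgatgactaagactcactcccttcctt
Casp4 promoter: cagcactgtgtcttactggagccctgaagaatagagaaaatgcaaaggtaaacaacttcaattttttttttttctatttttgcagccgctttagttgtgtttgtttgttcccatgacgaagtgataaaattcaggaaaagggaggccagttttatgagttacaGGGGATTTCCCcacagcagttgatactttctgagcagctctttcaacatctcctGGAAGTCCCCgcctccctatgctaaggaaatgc

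In the Casp4 window the consensus matched at -87 to -78 on the plus strand, at -86 to -77 on both strands, overlapping the first, and at -33 to -24 on the minus strand, counted in bases from the transcript start. The Casp1 window held no such match, which says only that these letters are not in it. The consensus was found in 1659 of 21770 promoters of coding genes (7.62%) and in 1 of the 9 described here. The interferon element GAAANNGAA was present in 7.55% of all promoters and in 0 of the 9. The PU.1 core GAGGAAGT was present in 2.08% of all and in 1 of the 9, Pycard, at -44 to -37 and on the strand opposite to the gene, where no other match lay.

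The other genes lie on chromosome 7 for Pycard (127588558 to 127593039), 15 for Gsdmd (75733974 to 75739257), 17 for Nlrc4 (74732433 to 74766165), 16 for Mefv (3525082 to 3535961) and 1 for Aim2 (173178445 to 173293930) and Nek7 (138410613 to 138550306). On their own strand and from end to end of the gene, introns included, Nek7 overlaps the unconfirmed transcripts Gm37080 and Gm37101, and Nlrc4 a processed pseudogene, Gm4708. Whether their exons overlap was not examined, so it is not known whether any counted reads were affected. The counting was by strand, so genes on the opposite strand are a smaller concern.

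Nlrp3 was the gene of the set that varied most between the cardiac groups. MI held 496, 626 and 865 normalized counts of it in libraries 13, 19 and 20, whereas MI + MSC held 2329.95, 3189 and 1008 in libraries 15, 17 and 18. In blood it had 629 and 550.3 in Blood 21 and 22, and 748 and 382 in Blood + MSC 23 and 24. Every MI + MSC library lay above every MI and every blood library, while MI overlapped both blood groups. The reads behind these values were 59 in MI 13, 89 in Blood 21 and at least 651 in each of the others.

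Among the other sensors, Mefv, which encodes pyrin, had 219, 384 and 384 normalized counts in MI and 657, 521 and 357 in MI + MSC. Blood held 558 and 429 and Blood + MSC held 570 and 384, so the MI libraries lay below both Blood libraries while the other groups overlapped each other. For Aim2, the sensor of cytosolic double-stranded DNA, MI held 75.6, 116 and 117, MI + MSC held 178, 209 and 99.7, Blood held 212 and 159, and Blood + MSC held 234 and 217.
By its means Aim2 was lowest in MI and highest in Blood + MSC. Nlrc4, which with NAIP proteins responds to bacterial flagellin and secretion needles, was the least abundant, and here MI held 50.4, 36.5 and 43.2, MI + MSC held 36.5, 39.0 and 48.1, Blood held 28.3 and 13.6, and Blood + MSC held 8.41 and 26.2. All 6 cardiac libraries lay above all 4 blood libraries for Nlrc4, although 6 reads in MI 13 and 4 in Blood 21 stand behind those values.

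Of the adaptor gene Pycard, which encodes ASC, MI held 50.4, 137 and 142 normalized counts, MI + MSC held 173, 91.8 and 199, Blood held 120.1 and 89.7, and Blood + MSC held 93.8 and 188. No group stood apart, and the lowest library was MI 13, with 6 reads. Nek7, a kinase that bridges NLRP3 subunits, was the most even of the genes, with 160 to 242 normalized counts over the cardiac and 170 to 222 over the blood libraries.
Its highest value was 1.52 times its lowest, against 8.35 times for Nlrp3. For Casp1 it was 34.0 times, where the lowest value was 1 read in MI 13.

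Casp1, the protease at the centre of the canonical complex, had 8.40, 58.6 and 54.6 normalized counts in MI and 69.6, 39.0 and 56.3 in MI + MSC, while Blood held 127 and 286 and Blood + MSC held 115 and 129. Its value in MI 13 was a single read. For Casp4, MI held 92.4, 86.5 and 113, MI + MSC held 122, 149 and 73.2, Blood held 233 and 377, and Blood + MSC held 215 and 139.
Gsdmd, the substrate that forms the pore, stood at 126, 125 and 107 in MI and at 158, 133 and 117 in MI + MSC, whereas Blood held 247 and 369 and Blood + MSC held 296 and 308. For Casp1 and Gsdmd all cardiac libraries lay below all blood libraries, while Casp4 overlapped between MI + MSC 17 and Blood + MSC 24. The share of all tested genes that part heart from blood in this way, as Casp1, Gsdmd and Nlrc4 did, was not counted. Between MI and Blood alone, the libraries did not overlap for 23.6% of tested genes in the lower and 31.6% in the higher direction.

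**Figure D1:**
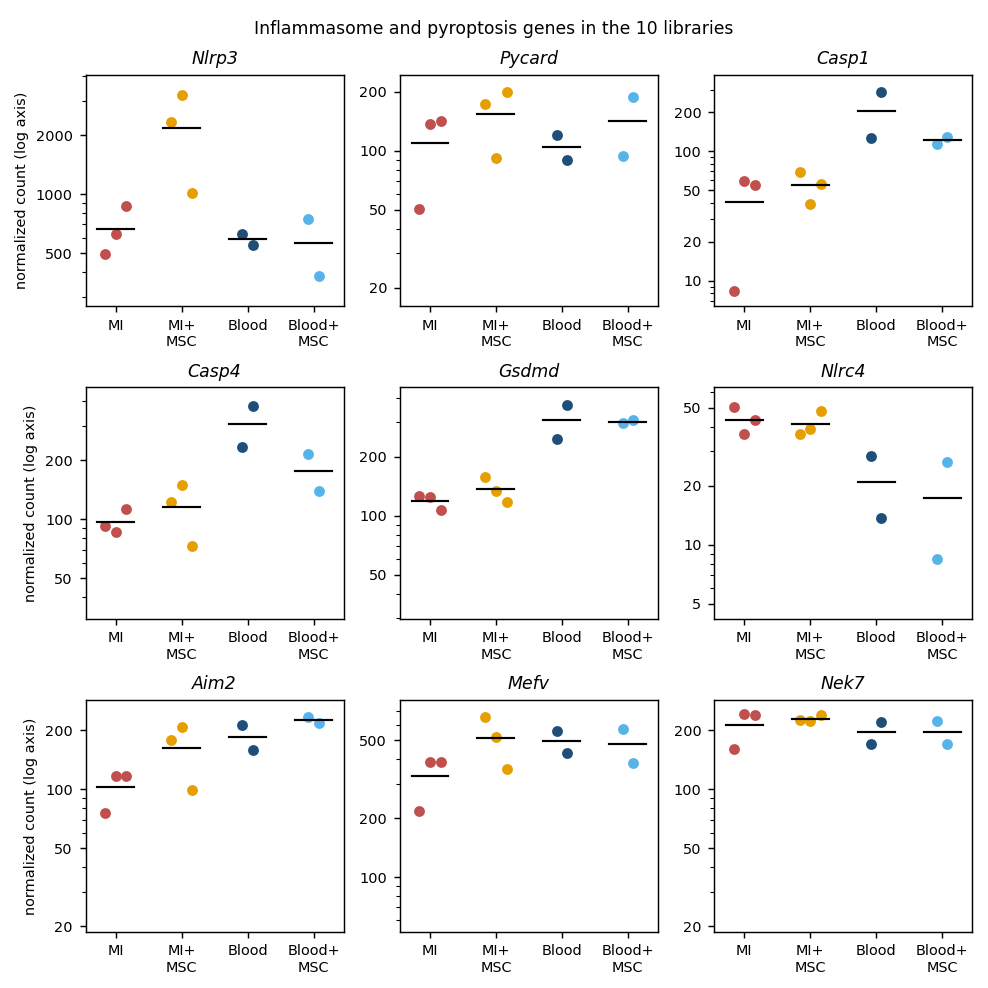
Normalized counts of the 9 genes on log axes whose lower ends are not 0, with 1 point per library, coloured by group (MI, MI + MSC, Blood, Blood + MSC), and a bar at the group mean. Nlrp3 in MI + MSC lies between 1008 and 3189, above all other libraries, and Gsdmd in the cardiac libraries lies between 107 and 158, below the blood libraries at 247 to 369.

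To compare levels between genes, normalized counts were divided by the length of the union of annotated exons in kilobases. By this measure Nlrp3 was first in MI, at 163 ± 46.1 (SD, n = 3), and in MI + MSC, at 536 ± 271 (SD, n = 3), and Mefv second, at 101 ± 29.5 and 157 ± 46.2 (SD, n = 3), and in neither group did the libraries of the 2 genes overlap. In blood the order turned, with Mefv at 152 ± 27.99 and Nlrp3 at 145 ± 13.7 in Blood (SD, n = 2), and at 147 ± 40.5 and 139 ± 63.8 in Blood + MSC (SD, n = 2), but these neighbours did not differ beyond their spread. Gsdmd was the next in every group, from 39.7 ± 3.65 (SD, n = 3) in MI to 103 ± 28.7 (SD, n = 2) in Blood, and was clear of the next gene in MI and Blood + MSC.
Pycard, Nek7, Casp4, Aim2 and Casp1 lay close together below it in the heart, and each overlapped its neighbours in MI. Nlrc4 was last in all groups, at 3.58 to 8.98 normalized counts per kilobase. With the length of the canonical transcript, a measure chosen after seeing the data, Nlrp3 and Mefv remained first and second in both cardiac groups and Nlrc4 last in all 4, while the order between them moved, as Casp4 then came right after Mefv in MI and MI + MSC and was first in Blood. Nlrp3 took 35.7% to 43.5% of the summed level per kilobase of the 9 genes in MI, 47.3% to 70.5% in MI + MSC, and 19.5% to 29.8% in the blood libraries.

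The first question was whether these genes differed with MSC treatment in cardiac cells. The most marked difference was that of Nlrp3, with a mean of 2176 ± 1099 normalized counts in MI + MSC and 662 ± 187 in MI (SD, n = 3 each), a ratio of 3.29. The log2 fold change was 1.60 (standard error 0.45, 95% confidence interval 0.61 to 2.59), but it did not pass the test over all genes (limma adjusted p = 0.517, unadjusted p = 0.00441). Differences were fitted with limma on log2(normalized count + 2) over all 10 libraries, and a gene was called where the Benjamini-Hochberg adjusted p was under 0.05 and the log2 fold change was 0.5 or more in size.
By this rule 0 of the 9 genes were called, as were 0% of the 11549 tested genes in the higher and 0% in the lower direction, although 925 genes had an unadjusted p under 0.05. DESeq2 on the recovered reads called Nlrp3 higher (adjusted p = 0.0166), as 1 of 21 genes that it called higher (0.182% of those tested), and limma-voom with quality weights did so too (adjusted p = 0.0309), whereas edgeR did not (adjusted p = 0.19). With each library left out in turn, the log2 fold change of Nlrp3 lay between 1.25 without MI + MSC 17 and 2.08 without MI + MSC 18.

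The 2 libraries of MI + MSC with the most Nlrp3, 17 and 15, also had the most neutrophil marker counts of the cardiac libraries, at 17097 and 11252, against 4267 in MI + MSC 18, which had 1008 normalized counts of Nlrp3. MI 19 had 9257 neutrophil marker counts and 626 of Nlrp3. Monocyte and macrophage markers summed to 3488 to 9052 in MI and 6181 to 12666 in MI + MSC, the highest in MI + MSC 18. Of these 14 markers 0 were called, with 9 positive and 5 negative. Summed cardiomyocyte markers were 8335 to 24599 in MI and 3259 to 12923 in MI + MSC, with 0 of 10 called and all 10 negative. Endothelial markers summed to 2096 to 2268 in MI and 493 to 922 in MI + MSC, where 8 of 9 had lower libraries without overlap and 0 were called. The part of these markers in the difference of Nlrp3 was not tested.

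**Figure D2:**
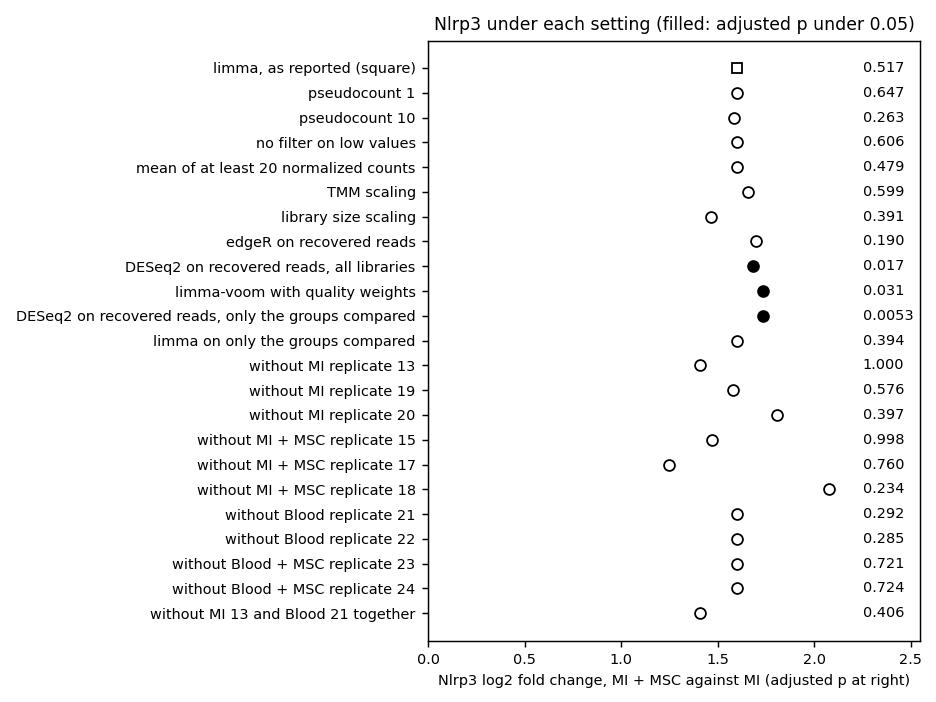
Log2 fold change of Nlrp3 between MI + MSC and MI (horizontal axis) under the reported limma fit (square) and 22 other settings (circles), with the adjusted p at the right and filled symbols where it is under 0.05. All values lie between 1.25 and 2.08, and 3 settings, both DESeq2 fits and limma-voom with quality weights, pass the threshold.

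The other 8 genes had smaller differences in the heart, with none called. Mefv had a mean of 512 ± 150 in MI + MSC and 329 ± 95.8 in MI (log2 fold change 0.64, 95% confidence interval -0.10 to 1.38), and Aim2 162 ± 56.3 and 103 ± 23.6 (0.61, interval -0.08 to 1.30). For Pycard (0.55), Casp1 (0.75), Casp4 (0.19), Gsdmd (0.18) and Nek7 (0.12) the values were also positive, and for Nlrc4 -0.07, and the libraries of all 8 overlapped between the groups.
In all, 8 of the 9 values were positive with a median of 0.55, while 5646 of the 11549 tested genes were positive, with a median of -0.01. The median of the 9 was 0.20 to 0.28 with limma-voom, edgeR and DESeq2. Without MI 13 it was 0.16, with 7 positive, and the value of Pycard was 0.070. Only Nlrp3 had libraries that did not overlap, as did 7.05% of all tested genes in the higher and 9.60% in the lower direction. The value of Casp1, with its single read in MI 13, was -0.08 without that library.

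In blood, the question was the same, and no gene of the set was called between Blood + MSC and Blood. Of all tested genes 0% were called higher and 0% lower by limma, although 848 genes had an unadjusted p under 0.05, none of them among the 9. DESeq2 and edgeR also called 0 of the 9. The background depended on which Blood library was kept. Without Blood 22 the group was Blood 21 alone, which had 268860 reads on genes and platelet markers at 28565. The median log2 fold change over all tested genes was then 0.23, and it was -0.019 without Blood 21. Casp4 came nearest, with a mean of 177 ± 53.4 in Blood + MSC and 305 ± 102 in Blood (SD, n = 2 each) and a log2 fold change of -0.77 with a standard error of 0.40 (limma adjusted p = 0.679).
Both Blood + MSC libraries of Casp4 lay below both Blood libraries, as for 15.4% of all tested genes. Aim2 had 225 ± 11.9 against 186 ± 37.3 (SD, n = 2 each), a log2 fold change of 0.29, and both its Blood + MSC libraries lay above both Blood libraries, as for 2428 of the 11549 tested genes. Nlrp3 had a log2 fold change of -0.14 (95% confidence interval -1.35 to 1.07) and Gsdmd one of -0.0017 (interval -0.67 to 0.66), so that changes of more than 2-fold in Nlrp3 lie within the interval. The median over the 9 genes was -0.07, against 0.11 over all tested genes. Neutrophil markers were at 46158 to 54082 in Blood and 17535 to 25036 in Blood + MSC, with 0 of 14 called. All 8 platelet markers were lower in Blood + MSC without overlap, with 0 called and a sum of 624 to 736, and the part of both lists in the lower Casp4 was not tested.

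Whether the difference with MSC was itself different between heart and blood was tested by the interaction in the same fit. For Nlrp3 the difference of the log2 fold changes was 1.74 (standard error 0.71, 95% confidence interval 0.17 to 3.30), with a limma adjusted p of 0.63, and 0% of all tested genes were called higher and 0% lower in this contrast, where 838 genes had an unadjusted p under 0.05. DESeq2 gave Nlrp3 an adjusted p of 0.0992. Casp1 (1.39) and Casp4 (0.96) had the next largest values, with intervals that include 0.

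Between the compartments without MSC, 3 of the 9 genes were called, all lower in MI: Casp1, Casp4 and Gsdmd. The mean of Casp1 was 40.5 ± 27.9 in MI (SD, n = 3) and 207 ± 112 in Blood (SD, n = 2), a log2 fold change of -2.55 with a standard error of 0.66 (limma adjusted p = 0.0138). The mean of Casp4 was 97.2 ± 13.7 against 305 ± 102, a log2 fold change of -1.60 with a standard error of 0.36 (limma adjusted p = 0.00725). Gsdmd had 119 ± 10.97 against 308 ± 86.1, a log2 fold change of -1.33 with a standard error of 0.28 (limma adjusted p = 0.00477).
Of all tested genes 13.5% were called lower and 21.2% higher in MI, so that 3 lower and 0 higher of 9 stands beside 1556 lower and 2452 higher of 11549. With library totals in place of size factors, the split of all genes was 812 lower and 3778 higher, with a median log2 fold change of 0.63 in place of 0.15, and the 3 genes were still called lower while Nlrc4 was called higher (adjusted p = 0.0313). The log2 fold change of Casp1 was -1.72 without MI 13, and its call was lost without Blood 22 (adjusted p = 0.0925) and when only the libraries of the 2 groups were fitted (adjusted p = 0.064).

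The other 6 genes were not called in this comparison. Nlrp3 had 662 ± 187 in MI and 590 ± 55.5 in Blood, a log2 fold change of 0.13 (95% confidence interval -0.97 to 1.24), and Pycard (-0.06) and Nek7 (0.12) also had values near 0. Nlrc4 was 43.4 ± 6.95 against 20.95 ± 10.3 (log2 fold change 1.05, limma adjusted p = 0.098), Aim2 103 ± 23.6 against 186 ± 37.3 (-0.85, limma adjusted p = 0.0803) and Mefv 329 ± 95.8 against 494 ± 91.0 (-0.62, limma adjusted p = 0.221).
None of these 3 passed the test. The libraries did not overlap for Nlrc4, which was higher in MI as for 31.6% of all tested genes, and for 5 genes that were lower (Casp1, Casp4, Gsdmd, Aim2 and Mefv), as for 23.6% of all. The median over the 9 genes was -0.62, against 0.15 over all tested genes, and -0.35 without MI 13.

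Neutrophil markers moved with these results. Of the 14, 11 were called lower in MI, at a median log2 fold change of -3.15, none was at 0 in all libraries of a group, and cardiomyocyte markers were called higher in 10 of 10. Of 8 platelet markers 7 were called lower, with a median of -4.45, and their sum was 28565 in Blood 21 and 1194 in Blood 22 against 487 to 670 in MI. Per 1000 neutrophil marker counts Casp4 had 31.3, 9.35 and 15.1 normalized counts in MI against 5.05 and 6.98 in Blood, and Gsdmd 42.6, 13.5 and 14.2 against 5.36 and 6.82. Casp1 had 2.84, 6.33 and 7.30 in MI against 2.76 and 5.29 in Blood, which overlap, unlike the ratios of Casp4 and Gsdmd. The overlap rests on the 2.84 of MI 13, where Casp1 had 1 read. The ratios of 6.33 and 7.30 lie above both Blood values. The part of these markers in the lower Casp1, Casp4 and Gsdmd was not tested.

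With MSC, Nlrp3 rose and Gsdmd fell in the heart relative to blood. Nlrp3 had a mean of 2176 ± 1099 in MI + MSC (SD, n = 3) and 565 ± 259 in Blood + MSC (SD, n = 2), a log2 fold change of 1.87 with a standard error of 0.50 (limma adjusted p = 0.0319). Gsdmd had 136 ± 20.6 against 302 ± 8.58, a log2 fold change of -1.15 with a standard error of 0.28 (limma adjusted p = 0.0197). Of all tested genes 8.23% were called higher and 5.85% lower.
The call of Nlrp3 was lost with TMM scaling (adjusted p = 0.0519) and without MI + MSC 15 (0.0939), MI + MSC 17 (0.0889), Blood + MSC 23 (0.0943) or Blood + MSC 24 (0.238), and that of Gsdmd without MI + MSC 18 (0.0778), Blood + MSC 23 (0.16) or Blood + MSC 24 (0.129). Casp1 (-1.16, limma adjusted p = 0.258) and Casp4 (-0.64, limma adjusted p = 0.251) were not called, and Nlrc4 had a log2 fold change of 1.32 (limma adjusted p = 0.0774). Of the 22 other settings, 6 called Casp1 lower and 5 called Nlrc4 higher. The libraries did not overlap for 3 genes that were higher (Nlrp3, Nlrc4 and Nek7), as for 33.8% of all tested genes, and for 3 that were lower (Casp1, Gsdmd and Aim2), as for 29.7%. The comparisons above share libraries, so their values are not independent of each other.

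**Figure D3:**
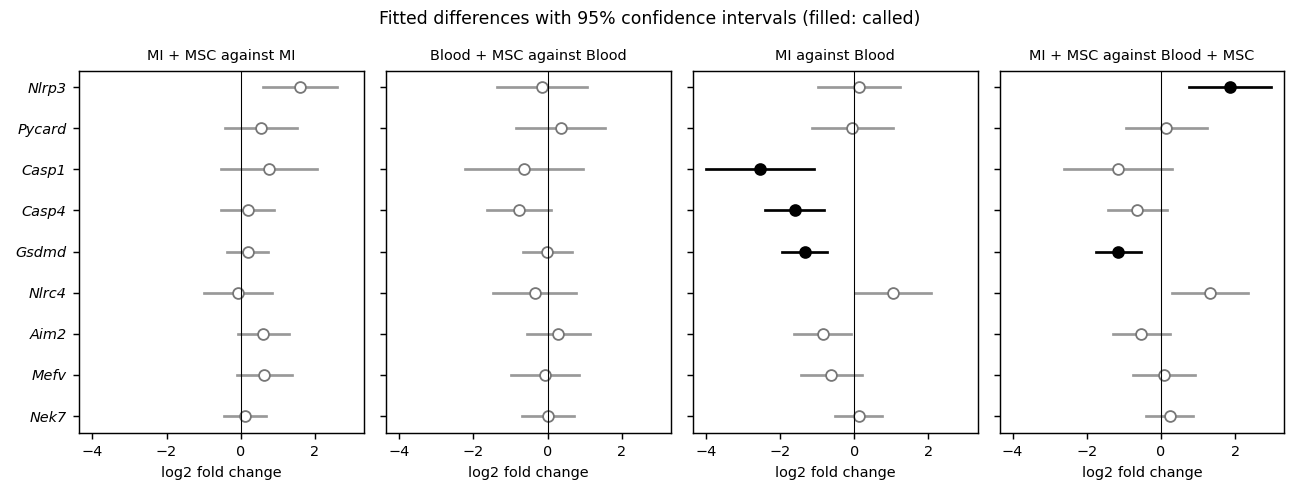
Log2 fold changes of the 9 genes (circles) with 95% confidence intervals (lines) in the 4 comparisons between groups, on log2(normalized count + 2), with filled symbols for genes called. Filled symbols are Casp1, Casp4 and Gsdmd in MI against Blood, and Nlrp3 and Gsdmd in MI + MSC against Blood + MSC.

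The genes around the complex were read from lists of its products, other sensors, regulators, pore and membrane rupture genes and other proteases. Il1b, the main cytokine product, stood at 1546, 2749 and 2951 normalized counts in MI and at 5497, 8793 and 2515 in MI + MSC, and Blood held 6811 and 4563 and Blood + MSC 7912 and 3003. It was not called in any comparison, with log2 fold changes of 1.09 between MI + MSC and MI (95% confidence interval -0.28 to 2.46, limma adjusted p = 0.653) and -1.26 between MI and Blood (limma adjusted p = 0.179). Il18, the other substrate of Casp1, was low throughout, at 7.07 to 38.4, with a log2 fold change of -0.47 between MI + MSC and MI.
Within each library, the normalized count of Nlrp3 was 0.228 to 0.321 times that of Il1b in MI, 0.363 to 0.424 times in MI + MSC, and 0.0923 to 0.127 times in the blood libraries, a ratio that does not depend on the size factors or on length when libraries are compared.

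In the heart with MSC against MI, 0 of the 44 tested genes of these lists were called, as in blood. The largest values there, named after they were seen, were those of Il1a, an alarmin cytokine, Tnfaip3, which encodes the NF-kB inhibitor A20, and Ninj1, whose protein ruptures the plasma membrane. Il1a had 16.8, 64.4 and 84.4 normalized counts in MI and 445, 498 and 206 in MI + MSC, without overlap (log2 fold change 2.92, limma adjusted p = 0.34, unadjusted p = 0.000316). Tnfaip3 had a log2 fold change of 1.82 with overlapping libraries and Ninj1 one of 1.35 without overlap (limma adjusted p = 0.53 for both). In MI against Blood, 1 of 4 tested products rose and 1 fell, 1 of 9 other sensors rose and 1 fell, 3 of 19 regulators rose and 6 fell, and 1 of 7 pore and rupture genes fell, where 21.2% of all tested genes rose and 13.5% fell. Il1a rose most, with 55.2 ± 34.7 in MI (SD, n = 3) against 0 and 2.60 in Blood 21 and 22, in the first of which 3 reads would be 21.2 (log2 fold change 3.97, limma adjusted p = 0.00128). Tnfaip3 rose from 73.9 ± 25.4 to 791 ± 469 (log2 fold change 3.22, limma adjusted p = 0.00466), and Nlrc3, a relative of the sensors, from 0 and 3.25 in Blood to 58.8, 15.4 and 13.4 in MI (2.97, limma adjusted p = 0.0312). For Nlrc3 the MI values of 15.4 and 13.4 lie below the 21.2 that 3 reads would be in Blood 21.
Nlrp12 fell from 794 ± 153 to 77.3 ± 16.1 (-3.33, limma adjusted p = 0.00438), and Gsdme, a further pore-forming gasdermin, from 197 ± 128 to 28.8 ± 10.5 (-2.59, limma adjusted p = 0.00262). These 5 had the largest changes of the genes called in the lists.
In MI + MSC against Blood + MSC, 8 of the 44 tested genes of the lists were called, 3 higher and 5 lower, beside 8.23% and 5.85% of all tested genes. Il1a (log2 fold change 5.17) and Tnfaip3 (4.15) were the largest of the 3 that rose. Nlrp12 (-3.04), the neutrophil protease gene Prtn3 (-2.74), Pstpip1 (-2.31), whose protein binds pyrin, and Gsdme (-1.74) were the largest of the 5 that fell. The lists were chosen with earlier results of these data known, and 4 of 14 neutrophil markers fell in this comparison too, as cardiomyocyte markers rose in 10 of 10, and their part in the values of Nlrp3 and Gsdmd was not tested.

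The genes whose pattern was most like that of Nlrp3 were found by Pearson correlation of log2(normalized count + 2) over the 10 libraries, among 5600 genes with a mean of at least 50. They were G0s2 (0.97), an inhibitor of triglyceride lipolysis, Nfkbia (0.96), Nfkbid (0.96) and Nfkbiz (0.94), which encode inhibitor of NF-kB family proteins, and Csrnp1 (0.94). As heart and blood libraries can fall apart, the correlation was also taken over the 6 cardiac libraries, where it was 0.98 for G0s2, 0.96 for Nfkbia, 0.99 for Nfkbid, 0.98 for Nfkbiz and 0.95 for Csrnp1. Of G0s2, MI held 92.4, 208 and 283 normalized counts, MI + MSC held 807, 1318 and 272, Blood held 120.1 and 80.6, and Blood + MSC held 233 and 72.3.
All 5 genes were highest in MI + MSC 17, then in MI + MSC 15, as was Nlrp3. The points share depth and composition within a library, and the genes were picked as the most alike.

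**Figure D4:**
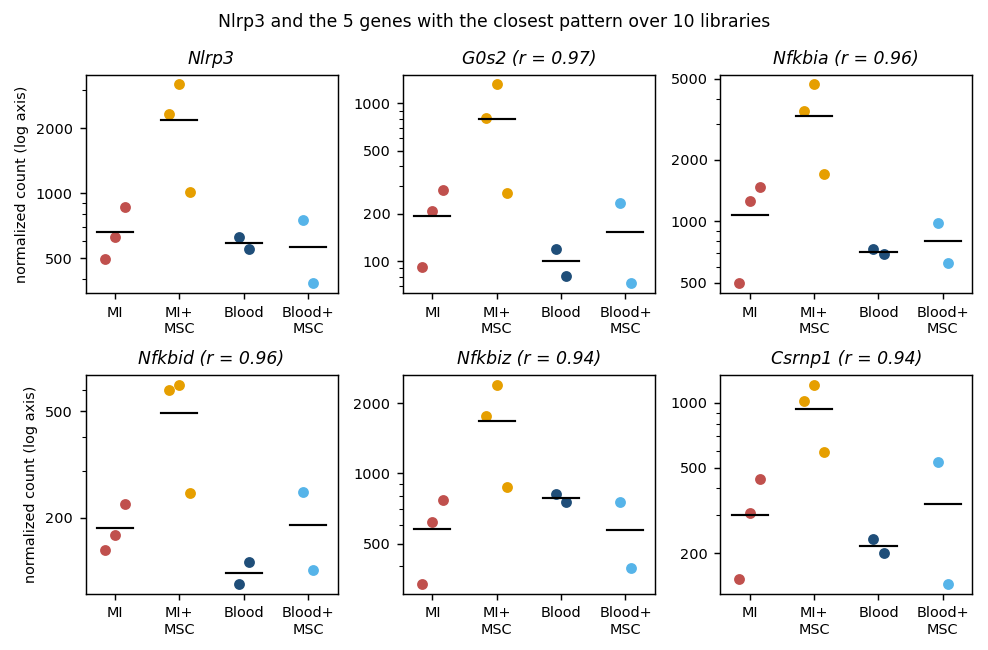
Normalized counts on log axes of Nlrp3 and of the 5 genes with the highest correlation to it over 10 libraries (r in the titles), with 1 point per library and a bar at the group mean. In each panel MI + MSC holds the 2 highest libraries, at 2329.95 and 3189 for Nlrp3.

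Among the 9 genes themselves, no strong relation to Nlrp3 was seen over all libraries, the highest correlation being 0.53 with Mefv and the lowest -0.42 with Gsdmd. Over the 6 cardiac libraries Nlrp3 correlated with Aim2 at 0.93, with Mefv at 0.86 and with Casp4 at 0.75. Casp4 and Gsdmd correlated at 0.84 over 10 libraries but at 0.41 over the cardiac ones, so the relation was weaker within the heart. Aim2 and Mefv went together in both, at 0.82 and 0.92.
Over the 10 libraries Nlrc4 had correlations from -0.84 with Gsdmd to 0.26 with Nlrp3. Within the heart all 8 of its correlations were negative, from -0.39 with Pycard to -0.81 with Mefv.

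Correlations with summed cell type markers are given in the same way, as descriptions. With the neutrophil markers they were 0.92 for Casp4, 0.84 for Casp1, 0.82 for Gsdmd and 0.81 for Aim2 over 10 libraries. Over the 6 cardiac libraries these were 0.76, 0.60, 0.41 and 0.95. Mefv had 0.66 over 10 libraries and 0.86 over the cardiac ones, and Nlrp3 -0.07 and 0.78. In the same order Nlrc4 had -0.74 and -0.88, Nek7 -0.06 and 0.56, and Pycard 0.0009 and 0.29. With the cardiomyocyte markers Nlrp3 had -0.91 over the cardiac libraries and 0.38 over all 10. With the endothelial markers it had -0.87 over the cardiac libraries and 0.16 over all 10. Gsdmd had -0.97 with the cardiomyocyte and 0.89 with erythroid markers over all 10, both larger in size than its 0.82 with the neutrophil markers. The cardiomyocyte and neutrophil sums themselves did not overlap between heart and blood.
Pycard followed the 14 monocyte and macrophage markers. Per 1000 marker counts it had 14.5, 15.4 and 15.7 normalized counts in MI and 15.4, 14.9 and 15.7 in MI + MSC, a correlation of 0.9998 over 6 libraries, while the markers themselves ran from 3488 to 12666. In Blood the same ratio was 14.4 and 12.4, while Blood + MSC held 15.8 and 24.7. Pycard was singled out after its values were seen, as the highest of 99 pairs of gene and marker list in the heart. Its values rest on 6 reads in MI 13 and 40 in MI + MSC 17, so so even a ratio is closer than such counts can show. With the same markers over the cardiac libraries, Casp1 had 0.93 and Nek7 0.88, and the remaining genes lay between -0.39 (Nlrc4) and 0.61 (Mefv).

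**Figure D5:**
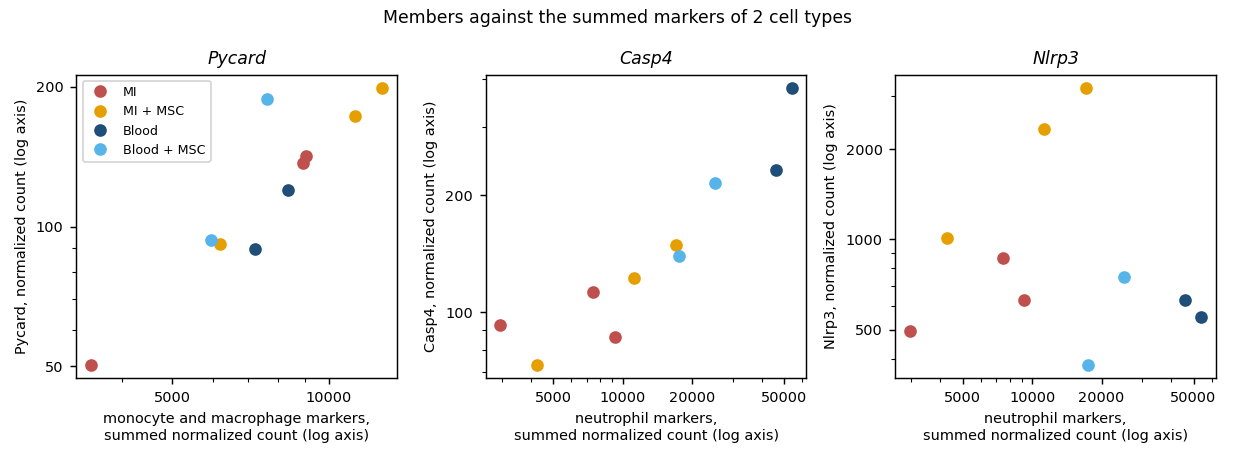
Normalized counts of Pycard against summed monocyte and macrophage markers, and of Casp4 and Nlrp3 against summed neutrophil markers, with 1 point per library, coloured by group, on log axes. Pycard rises with the macrophage markers from 50.4 to 199 over the cardiac libraries, Casp4 rises with the neutrophil markers over all libraries, and Nlrp3 in MI + MSC lies above the blood libraries, which hold more neutrophil marker counts.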

How the data were processed

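RNA-seq libraries of Ly6G+ cells from heart and blood (10 libraries, 4 groups taken from the labels) were used. Per the methods and the labels, the authors trimmed reads with Trimmomatic, removed duplicates with Picard, mapped with STAR to GRCm39, counted by strand with featureCounts and left out mitochondrial reads. The deposited signal values are these counts divided by DESeq2 size factors, and the table named as raw holds the same 281850 values. Divided by the worth of 1 read, 100% of values came out whole (tolerance 0.1), which gave the recovered reads.

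Here, limma (3.58.1, R 4.3.3) with an intensity trend was fitted to log2(normalized count + 2), 1 mean per group and all libraries together, on 11549 genes whose mean reached 10. This log scale understates the change of low genes. Calls needed a Benjamini-Hochberg adjusted p under 0.05 and a log2 difference whose size was 0.5 or more (interaction: the adjusted p alone). edgeR (4.0.16) and DESeq2 (1.42.0) on recovered reads, limma-voom, other scalings, filters and pseudocounts, and fits without single libraries were alternatives. The fits were tested on simulated data. The p-values measure the spread between libraries, for which the methods give single animals as the unit.

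The genes and lists were chosen with earlier results of these data known. All 9 genes are named, and of the lists Il1b, Il18 and up to 6 of the largest called genes per comparison, of which 1 is not reported here. Stmp1 and Ctsg were not analysed here. Coordinates and sequences come from GRCm39 with GENCODE vM39, which held 27906 of the 28185 gene identifiers. Protein sequences were not used here.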

Additional observations from a re-analysis of the deposited data

How the results depend on the processing

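Across 22 other settings, 736 values for single genes kept their direction and their side of the threshold, 51 turned direction, 15 passed and 10 lost the threshold. Casp4 and Gsdmd stayed lower in MI than in Blood in all 22. For MI + MSC against MI, 1 gene, Nlrp3, was called with DESeq2 on all libraries, DESeq2 on the groups compared and limma-voom with quality weights, in place of 0. For MI + MSC against Blood + MSC the count was 1 with TMM scaling and 4 each with limma-voom, with limma on the groups compared and without MI 13 and Blood 21 together, in place of 2, and 0 to 3 with each library left out. The cause was not tested. Over all tested genes, MI + MSC against MI had 0 calls with limma, but 21 higher and 58 lower with DESeq2 on all libraries, 53 and 95 with DESeq2 on the groups compared, and 39 and 222 with limma-voom. Blood + MSC against Blood had 4 and 175, and 1 and 38, with the DESeq2 fits, and 1113 and 393 without Blood 22, and the interaction 18 and 2 with DESeq2 and 249 and 846 without Blood 22. MI against Blood, with 2452 and 1556, had 936 and 1654 with limma-voom, 1091 and 609 with limma on the groups compared and 1353 and 1038 with DESeq2 on them. MI + MSC against Blood + MSC, with 951 and 676, ranged from 227 and 39 without Blood + MSC 23 to 2529 and 2355 with limma-voom. Nek7 in MI + MSC against MI became -0.00607 with library size scaling, -0.029 with limma-voom and -0.071 without MI 13 and Blood 21, Nlrc4 0.021 with DESeq2 on the groups compared and 0.041 without those libraries, and Casp1 -0.077 without them. In Blood + MSC against Blood, Gsdmd became 0.043 with TMM, 0.30 with library size scaling and 0.10 with limma-voom. With library size scaling Nlrp3 became 0.16 and Mefv 0.23, and with edgeR Mefv 0.010 and Nlrc4 0.15. Nlrc4 was 0.13 with limma-voom, and Nek7 -0.075 with DESeq2 on all libraries and -0.038 on the groups compared. Without MI 13 and Blood 21, Nlrc4 was 0.13, Mefv 0.12 and Nek7 -0.18. In MI against Blood, TMM gave Nlrp3 -0.0098 and Nek7 -0.025. Pycard became 0.45 with library size scaling, 0.23 with edgeR, 0.21 with DESeq2 on all libraries, 0.36 with limma-voom, 0.17 with DESeq2 on the groups compared and 0.63 without MI 13 and Blood 21. In MI + MSC against Blood + MSC, TMM gave Mefv -0.044. With each library left out, the ranges that cross 0 were, for MI + MSC against MI, -0.077 to 1.19 for Casp1, -0.028 to 0.48 for Casp4, -0.18 to 0.041 for Nlrc4 and -0.071 to 0.23 for Nek7. For Blood + MSC against Blood they were -0.62 to 0.34 for Nlrp3, -0.14 to 0.85 for Pycard, -0.29 to 0.29 for Gsdmd, -1.06 to 0.38 for Nlrc4, -0.35 to 0.22 for Mefv and -0.18 to 0.20 for Nek7. For MI against Blood they were -0.078 to 0.32 for Nlrp3, -0.31 to 0.42 for Pycard and -0.072 to 0.31 for Nek7, and for MI + MSC against Blood + MSC -0.35 to 0.64 for Pycard and -0.20 to 0.37 for Mefv. Where 1 library of a blood group was left out, the lone library was assumed to vary like the other groups. In MI 13 a count of 3 reads equals 25.2 normalized counts, and 21.2 in Blood 21, so lower values there rest on fewer than 3 reads. No paired analysis was possible because the groups compared share no replicate numbers and the labels tie no heart library to a blood library.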
